A study of Mus musculus with 18 samples.

Results

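The integrin subunits are 10 genes chosen by name, Itga1, Itga2, Itga4, Itgae, Itgal, Itgav, Itgb1, Itgb2, Itgb7 and Itgb8, out of 19752 genes that the arrays measured through a probe set with 1 gene symbol. Each of the 10 had 1 such probe set. Expression was measured in regulatory T cells (Tregs), CD4+ T cells that depend on the transcription factor Foxp3 and hold immune responses in check, on 18 Affymetrix Mouse Gene 1.0 ST arrays, 3 in each of 6 groups. All cells came from NOD mice, a strain prone to autoimmune diabetes. The spleen groups came from mice of 60 days that were labelled female. These mice carried Foxp3-eGFP-Cre-ERT2, a tamoxifen-dependent recombinase expressed from Foxp3, together with a Rosa26-YFP reporter. Tamoxifen was given in 4 intraperitoneal injections, either between days 0 and 10 of life or between days 35 and 45. Cells that expressed Foxp3 at that time, and their descendants, could become YFP+, so the GFP+YFP+ cells are called perinate-tagged or adult-tagged here. The GFP+YFP- cells of the same treatments are the untagged perinate-treated and untagged adult-treated groups, which carried the same alleles and also received tamoxifen. The thymus groups were Foxp3-GFP+ CD4+ cells of male mice. They were taken at 4 days in the perinate thymus group and at 5 weeks in the adult thymus group, with no tamoxifen named in their labels. Spleen cells were sorted on a FACSAria and thymus cells on a MoFlo. The labels do not say whether replicates were separate animals, so the p-values measure only the spread between these samples.

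Integrins are surface receptors made of 1 alpha and 1 beta chain, which bind matrix proteins or ligands on other cells and connect to actin through adaptors such as talin. In T cells they govern arrest on vessels, entry into tissue and retention there. The alpha1 (CD49a) and alpha2 (CD49b) chains pair with beta1 to bind collagen, alphaE (CD103) pairs with beta7 to bind E-cadherin on epithelium, and alphaL pairs with beta2 as LFA-1, the receptor for ICAMs. The alpha4 chain pairs with beta1 to bind VCAM-1 or with beta7 to bind MAdCAM-1 in the gut. The alphav chain pairs with beta8 to activate latent TGF-beta, a cytokine through which Tregs act.

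Promoter sequences of 4 members are shown because these genes moved together on the untagged arrays described further on, where Itga2, Itgae, Itgav, Itgb1 and Itgb8 were low on the same 2 arrays. RefSeq promoters (GRCm38.p6) matched 7 of the 10 members. Itgae, Itgal and Itgb2 had no entry. The 250 bases before the start are given 5′ to 3′ on the gene's strand, for Itga2 at chr13:114932101-114932350 (minus strand), Itgb1 at chr8:128685404-128685653 (plus strand), Itgav at chr2:83724147-83724396 (plus strand) and Itgb8 at chr12:119238277-119238526 (minus strand). Capitals mark matches, on either strand, to any of 5 motifs searched: Runx (TGTGGT), Ets (GGAAG), Sp1 (GGGCGG), AP-1 (TGACTCA) and forkhead (GTAAACA).
Itga2: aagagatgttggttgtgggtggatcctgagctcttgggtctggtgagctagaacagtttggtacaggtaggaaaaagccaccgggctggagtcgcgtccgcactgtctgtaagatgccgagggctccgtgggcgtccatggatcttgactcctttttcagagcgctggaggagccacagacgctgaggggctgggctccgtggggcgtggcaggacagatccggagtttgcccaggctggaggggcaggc
Itgb1: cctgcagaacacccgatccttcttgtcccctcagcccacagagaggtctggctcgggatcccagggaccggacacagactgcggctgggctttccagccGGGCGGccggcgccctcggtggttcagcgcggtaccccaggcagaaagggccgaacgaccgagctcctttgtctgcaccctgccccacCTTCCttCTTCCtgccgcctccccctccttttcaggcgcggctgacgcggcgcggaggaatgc
Itgav: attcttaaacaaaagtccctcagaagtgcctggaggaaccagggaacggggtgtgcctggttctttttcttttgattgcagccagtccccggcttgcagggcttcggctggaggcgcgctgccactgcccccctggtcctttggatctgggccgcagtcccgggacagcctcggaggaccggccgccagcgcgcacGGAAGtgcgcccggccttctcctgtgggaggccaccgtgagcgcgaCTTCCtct
Itgb8: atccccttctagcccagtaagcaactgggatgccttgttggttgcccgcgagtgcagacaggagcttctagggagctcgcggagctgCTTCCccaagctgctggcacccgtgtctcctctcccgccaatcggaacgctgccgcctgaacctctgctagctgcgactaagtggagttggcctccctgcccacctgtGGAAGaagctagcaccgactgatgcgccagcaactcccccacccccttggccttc
The Ets letters stood 2 times each in the Itgb1, Itgav and Itgb8 windows, and 64.1% of all 32851 promoters of the same length hold them. The Sp1 letters stood once in the Itgb1 window (32.7% of all promoters). None of the 5 motifs matched in the Itga2 window, where the background shares were 14% for Runx, 4.46% for AP-1 and 3.17% for forkhead. These are letter matches and not bound sites. The 4 windows were 60.8% (Itga2), 68.0% (Itgb1), 64.4% (Itgav) and 62.4% (Itgb8) G and C, against a median of 52.4% over all promoters. Itga2 lies beside Itga1 on chromosome 13 in the RefSeq gene order.

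Values are log2 intensities, means carry the standard deviation (SD) of 3 arrays, and differences carry their standard error (SE). A gene was tested where 1 or more group means were at or above 7.052, the median over the whole table, which held for 9 members and not for Itga1. Genes that cannot be expressed by sex (3 Y-linked genes in females, Xist in males) read 3.95 to 6.3, which is taken as the background. All 9 of the 9 listed Treg and T cell markers lay above it in every group. Perinate-tagged replicate 2 did not match its female label: Eif2s3y, a Y-linked gene, read 9.79 there and at most 4.9 on the 11 other female arrays. Xist read 8.38 there, above the background but below the 11.86 to 12.41 of the other female arrays. The spread of an array's values, as its interquartile range, had a mean of 3.05 ± 0.09 for perinate-tagged arrays, 2.65 ± 0.21 for adult-tagged arrays, 3.03 ± 0.03 for perinate thymus and 2.53 ± 0.39 for adult thymus. In these bulk samples, fewer cells of a kind and less RNA per cell cannot be told apart.

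The comparison of perinate-tagged with adult-tagged spleen cells asks how Tregs tagged around birth differ from Tregs tagged in the adult when both are taken at the same age. Collagen-binding and epithelium-binding chains were higher in perinate-tagged cells: Itga2 by 4.12-fold, Itgae by 3.34-fold and the shared chain Itgb1 by 2.05-fold. Itgal, of LFA-1, was 1.35-fold higher. Of the 9 tested members, 4 were higher and 0 lower at an adjusted p under 0.05 (limma, Benjamini-Hochberg over 10350 genes), against 16% and 3.5% of all genes. The members' median difference was 0.43, and that of all genes was 0.12.

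Itga2 (probe set 10412267), the alpha2 chain, read 9.78, 9.76 and 9.83 on the perinate-tagged arrays and 7.70, 7.86 and 7.68 on the adult-tagged ones. All perinate-tagged values lay far above all adult-tagged ones, and the SD within either group was at most 0.1. The difference was 2.04 ± 0.26 (limma, adjusted p = 9.06e-05), and it passed the threshold under 24 of 24 alternatives. Itgb1 (10576661), its beta chain, read 11.43, 11.84 and 11.74 against 10.65, 10.55 and 10.70. These groups also did not overlap, and the difference was 1.04 ± 0.23 (limma, adjusted p = 0.00569).

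Itga1 (10412298), the other collagen-binding alpha chain, read 6.84, 6.66 and 6.31 in perinate-tagged cells, against 5.44, 5.03 and 5.26 in adult-tagged cells. The perinate-tagged arrays stood just above the highest background value and the adult-tagged arrays within the background, so the size of the difference, 1.36 ± 0.18, rests on values at or near the background. Itga1 was below the filter, and with no filter its adjusted p was 0.000125 (limma). The untagged groups read 4.94 to 5.54, also within the background.

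Itgae (10378286), the alphaE chain, read 9.98, 9.76 and 9.86 in perinate-tagged cells, against 8.17, 8.28 and 7.94 in adult-tagged cells. The groups were separate and tight, and the difference was 1.74 ± 0.40 (limma, adjusted p = 0.00845). Its partner Itgb7 (10432957) read 10.41, 10.90 and 10.87 against 10.50, 10.31 and 10.40. These ranges overlapped, and the difference of 0.33 ± 0.20 did not pass (limma, adjusted p = 0.253).

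Itgal (10557591) read 11.44, 11.55 and 11.41 in perinate-tagged cells, against 11.01, 11.11 and 10.98 in adult-tagged cells, with no overlap. The difference of 0.43 ± 0.14 lay near the threshold (limma, adjusted p = 0.0472) and passed under 11 of 24 alternatives. Without any 1 of the 6 tagged arrays its adjusted p was between 0.0614 and 0.15. Itgb2 (10364262), the other chain of LFA-1, read 11.52, 11.79 and 11.71 against 11.65, 11.62 and 11.54, and these values overlapped (0.07 ± 0.14, limma, adjusted p = 0.755).

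Itgb8 (10403229), the beta chain of the TGF-beta activating integrin, read 8.99, 9.62 and 9.29 in perinate-tagged cells, against 8.27, 8.61 and 8.56 in adult-tagged cells. The groups did not overlap, but the difference of 0.82 ± 0.29 missed the threshold (limma, adjusted p = 0.0582) and passed under 9 of 24 alternatives. Itgav (10473281), its alpha chain, read 9.88, 9.96 and 9.76 against 9.41, 9.61 and 9.34, also without overlap (0.41 ± 0.21, limma, adjusted p = 0.178). Itga4 (10473125), of the VCAM-1 and MAdCAM-1 receptors, read 11.57, 12.05 and 11.83 against 12, 11.82 and 11.75. Its values were intermixed (−0.04 ± 0.16, limma, adjusted p = 0.874). In all, 6 of the 9 tested members had groups that did not overlap, against 45.8% of all genes.

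**Figure D1:**
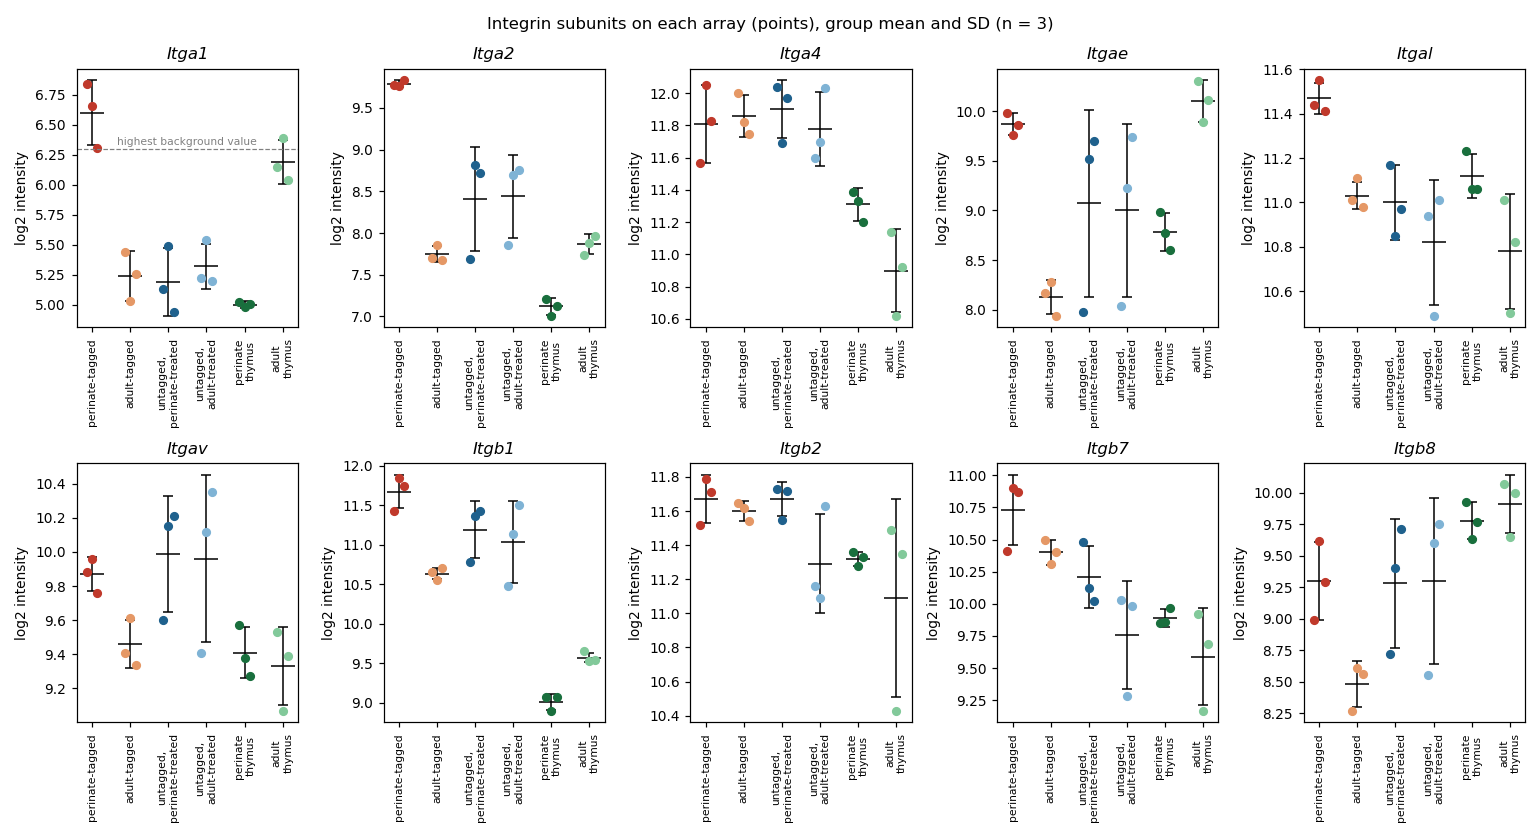
Log2 intensity of the 10 members (vertical axes) on each of 18 arrays, by group, with points for arrays, horizontal lines for group means and whiskers for 1 SD (n = 3). Perinate-tagged cells stand above adult-tagged cells for Itga2, Itgae and Itgb1, and 1 array of each untagged group lies well below the other 2 for the same genes.

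With the array's interquartile range as a covariate, Itga2 alone passed, and the values for Itgae (1.21, adjusted p = 0.306), Itgb1 (0.75, adjusted p = 0.235) and Itgal (0.23, adjusted p = 0.563) did not (limma). The covariate itself did not overlap between the groups, at 2.94 to 3.12 on perinate-tagged and 2.49 to 2.88 on adult-tagged arrays. Array spread and time of tagging therefore cannot be fully told apart in this fit. Quantile normalization moved the median of all genes by −0.16 and changed the split of all calls from 1658 higher and 362 lower to 1067 and 901. Centring on the tested genes moved it by −0.21 and gave 913 higher and 1368 lower. Itga2, Itgae and Itgb1 stayed higher and past the threshold under both scalings, and Itgal did not pass under either. Without perinate-tagged replicate 2, the array that did not match its label, the differences were 2.05 for Itga2, 1.68 for Itgae and 1.16 for Itgb1, each past the threshold.

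The untagged cells, a mixture not marked at the time of treatment, give the background for the effect of the age at injection. None of the 9 tested members differed between untagged perinate-treated and untagged adult-treated cells (limma, adjusted p = 0.995 for each), and 0% of all genes did. Groups did not overlap for 0 of these members, against 4.81% of all genes. Before adjustment, 2 of 9 had a p under 0.05, as had 380 genes of all. These were Itgb7 (0.44 ± 0.20, unadjusted p = 0.0406 in limma) and Itgb2 (0.37 ± 0.14, unadjusted p = 0.0204 in limma). The 95% interval of the difference ran from −0.59 to 0.53 for Itga2, from −0.8 to 0.93 for Itgae and from −0.33 to 0.64 for Itgb1. The untagged arrays share replicate numbers that go together in the data, and with the number as a block again 0 members passed, against 49 of all genes.

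The tagged difference minus the untagged difference was 2.07 ± 0.37 for Itga2 (limma, adjusted p = 0.00368), so for this gene the perinate to adult difference was larger in tagged than in untagged cells. It was the 1 member of 9 that passed, against 4.89% of all genes (4.29% higher and 0.599% lower). Itgae (1.68 ± 0.57, adjusted p = 0.119), Itgb1 (0.88 ± 0.32, adjusted p = 0.145) and Itgb8 (0.84 ± 0.41, adjusted p = 0.286) did not pass in limma.

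Within 1 treatment, tagged and untagged cells differ in whether they were marked at the time of injection. Perinate-tagged cells were set against untagged perinate-treated cells, a comparison that shares its perinate-tagged arrays with the one above. Itga2 was 2.61-fold higher in the tagged cells (1.38 ± 0.26, limma, adjusted p = 0.00512), the 1 member that passed of 9, where 7.34% of all genes passed, 5.49% higher and 1.86% lower. The untagged arrays read 7.69, 8.81 and 8.72, all below the 3 tagged arrays. Groups did not overlap for 4 of 9 members, against 32% of all genes. Itgal (0.47 ± 0.14, adjusted p = 0.062), Itgb7 (0.52 ± 0.20, adjusted p = 0.128), Itgb1 (0.48 ± 0.23, adjusted p = 0.221) and Itgae (0.80 ± 0.40, adjusted p = 0.254) were not past the threshold in limma.

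Adult-tagged cells, set against untagged adult-treated cells, had 0 of 9 members past the threshold (limma), where 0% of all genes were higher and 0.271% lower. Groups did not overlap for 2 of 9 members, against 17% of all genes. Before adjustment, 6 of 9 members had a p under 0.05 in limma, as had 1699 of all genes. The differences were −0.69 ± 0.26 for Itga2 (adjusted p = 0.232), −0.88 ± 0.40 for Itgae (adjusted p = 0.298), −0.82 ± 0.29 for Itgb8 (adjusted p = 0.204) and −0.51 ± 0.21 for Itgav (adjusted p = 0.263) in limma. Itgb7 (0.64 ± 0.20, adjusted p = 0.167) and Itgb2 (0.31 ± 0.14, adjusted p = 0.302) went the other way in limma.

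**Figure D2:**
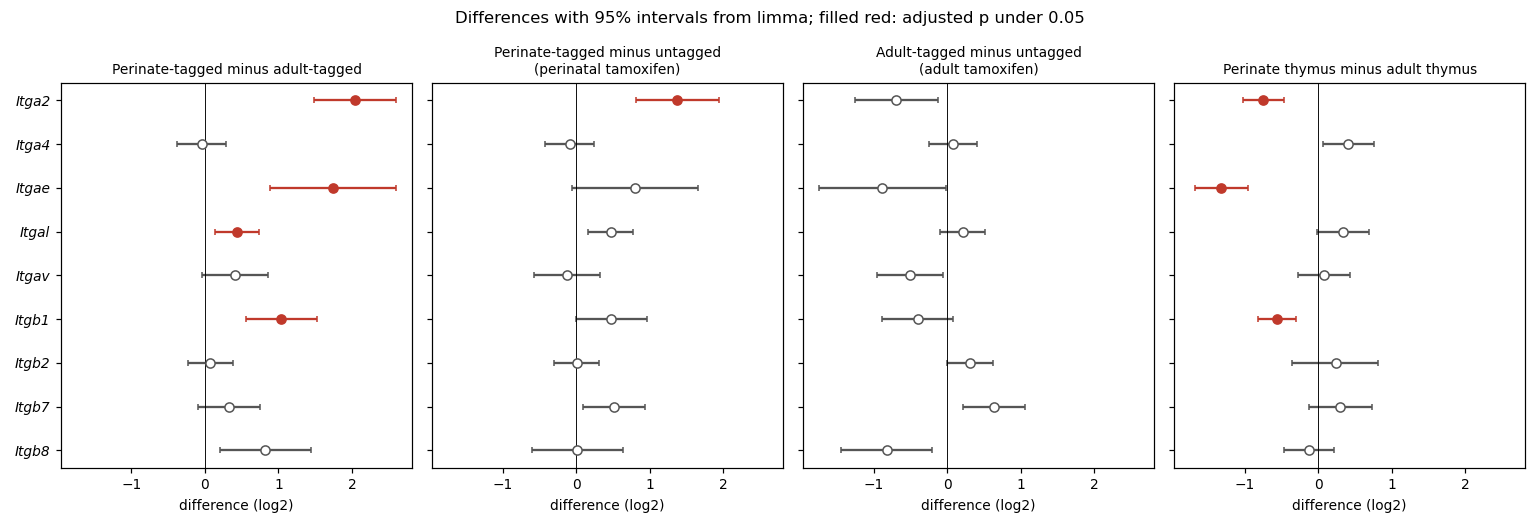
Log2 differences (horizontal axes) of the 9 tested members in 4 comparisons, with 95% intervals from limma and filled points for an adjusted p under 0.05. Itga2 is past the threshold in 3 of the 4 comparisons, higher in perinate-tagged cells and lower in perinate thymus.

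In each untagged group 1 array stood apart for several members, the one numbered 3. For Itga2 these arrays read 7.69 in untagged perinate-treated and 7.86 in untagged adult-treated cells, and the other 4 untagged arrays 8.69 to 8.81. For Itgae they read 7.98 and 8.04, against 9.23 to 9.74. For Itgb1 they read 10.78 and 10.48, against 11.13 to 11.50, so that for all of these genes both number 3 arrays lay near the adult-tagged level.

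The same held for Itgav, at 9.60 and 9.41 against 10.12 to 10.35, and for Itgb8, at 8.72 and 8.55 against 9.40 to 9.75. In all, 5 of the 9 tested members were more than 0.5 lower on the number 3 array than on both others in both untagged groups. This held for 224 of 10350 genes (2.16%), and the opposite for 137 genes (1.32%) and 0 members. Itga4, Itgal, Itgb2 and Itgb7 showed no such gap. The labels give no reason for the difference. Replicate numbers were also uneven in the tagged groups, with 2, 4 and 5 in perinate-tagged and 1, 2 and 3 in adult-tagged cells. What the number stands for thus cannot be fully told apart from the time of tagging. On the tagged arrays numbered 2, Itga2 read 9.78 (perinate-tagged) and 7.86 (adult-tagged). Itgae read 9.98 and 8.28 there, and Itgb1 11.43 and 10.55.

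**Figure D3:**
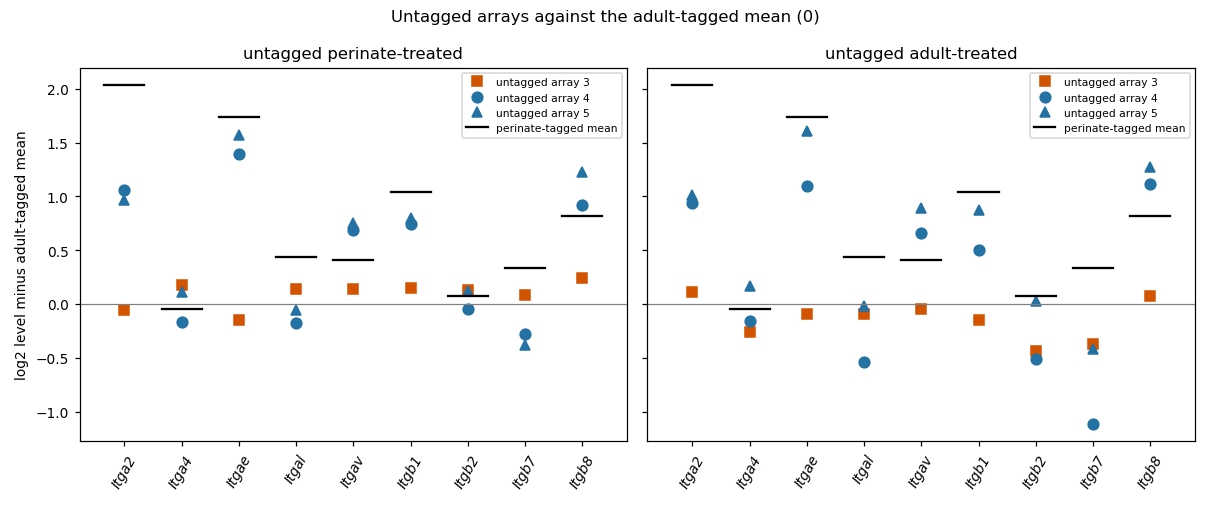
Log2 level minus the adult-tagged mean (vertical axes) of the 9 tested members on the 3 arrays of each untagged group, by replicate number. The grey line marks the adult-tagged mean, and black bars mark the perinate-tagged mean of each gene. Itga2, Itgae, Itgav, Itgb1 and Itgb8 lie more than 0.5 lower on the array numbered 3 than on the other arrays of both groups.

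Leaving out both number 3 arrays was an alternative added after the data were seen. It was chosen because Itga2, Itgae, Itgav, Itgb1 and Itgb8 were low there, so for these genes a larger gap and a smaller spread follow from the choice, and the values are given as a description. Adult-tagged minus untagged adult-treated differences were then −1.36 for Itgae, −1.2 for Itgb8, −0.98 for Itga2, −0.78 for Itgav and −0.68 for Itgb1. With Itgb7, at 0.77, they made 6 of 9 members past the threshold in limma, against 13.9% of all genes. Leaving out the untagged adult-treated array alone also gave 6 members, and 774 of all genes.

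The tagged minus untagged differences without both arrays were 2 for Itga2, 1.62 for Itgae, 0.95 for Itgb1 and 0.94 for Itgb8. These 4 members passed in limma, against 6.06% of all genes. Perinate-tagged minus untagged perinate-treated differences became smaller, from 1.38 to 1.02 for Itga2, from 0.80 to 0.26 for Itgae and from 0.48 to 0.27 for Itgb1. Itga2, Itgal (0.56) and Itgb7 (0.66) passed there in limma, 3 of 9 members, against 15.4% of all genes. Between the untagged groups 0 members passed, as with all arrays.

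In the thymus, where Tregs are newly made, perinate cells were set against adult cells. Here the order was the other way: Itgae was 2.49-fold lower, Itga2 1.68-fold lower and Itgb1 1.47-fold lower in perinate than in adult thymus. Of 9 members, 3 were lower and 0 higher (limma), against 5.84% and 18.5% of all 10650 genes tested (24.3% in either direction). Another 6 were not past the threshold.

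Itgae read 8.98, 8.77 and 8.60 in perinate and 10.30, 9.89 and 10.11 in adult thymus. The groups were well apart, and the difference was −1.32 ± 0.15 (limma, adjusted p = 0.00137). Itga2 read 7.21, 7.01 and 7.13 against 7.74, 7.88 and 7.97, again with no overlap (−0.75 ± 0.12, limma, adjusted p = 0.00528).

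Itgb1 read 9.07, 8.90 and 9.07 against 9.65, 9.53 and 9.54. Its difference was −0.56 ± 0.11 (limma, adjusted p = 0.0124), and without any 1 perinate thymus array its adjusted p rose to between 0.0552 and 0.0794. Itga1 read 4.98 to 5.02 in perinate thymus, within the background, and 6.04 to 6.39 in adult thymus, near its upper end, so its difference of −1.19 rests on values at the background level.

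Itga4 (0.41 ± 0.15, adjusted p = 0.0774) and Itgal (0.34 ± 0.15, adjusted p = 0.124) were not past the threshold in limma, although their groups did not overlap. Without adult thymus replicate 1 both passed, Itgal with 0.46 (limma, adjusted p = 0.0407). Groups did not overlap for 5 of 9 members, against 53.6% of all genes. Quantile normalization moved the median of all genes by −0.18 here, with 1208 genes higher and 1050 lower. The 3 members that passed were lower under each scaling tried.

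Of the 7 listed CD8 and NK markers, 3 were tested in thymus, with 1 lower and 0 higher in perinate cells (limma). By group mean, 3 of the 7 lay above the background in both thymus groups. Cd8a was 9.75 ± 0.06 in perinate and 10.36 ± 0.04 in adult thymus, against 6.52 to 6.83 in the spleen groups. The summed linear intensity of the 7 listed markers, all measured, was 1710 to 1790 in perinate thymus, 2250 to 2470 in adult thymus and 555 to 729 in spleen. AlphaE is also a chain of CD8 T cells. The thymus cells were sorted as CD4+ and Foxp3-GFP+, and the part of cells with Cd8a in the thymus result was not tested.

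In the spleen, Itga2 is known from platelets and NK cells as well. The platelet list, with 6 of 8 genes measured, summed to 384 to 472 on perinate-tagged arrays and 474 to 580 on adult-tagged arrays. By group mean, 3 of the 6 measured platelet genes lay above the background in both tagged groups. Among those within it were Pf4 (5.62 and 5.72) and Ppbp (5.13 and 5.30), and the part of platelets in the result was not tested. The NK receptor genes Ncr1 (5.06 and 5.19) and Klrb1c (4.08 and 4.02) also lay within it. Of the 7 CD8 and NK markers, 4 lay above the background on perinate-tagged and 3 on adult-tagged arrays. Gzma, a granzyme of NK and cytotoxic T cells, was 7.08 ± 0.53 on perinate-tagged arrays and 5.38 ± 0.06 on adult-tagged arrays, and its part in the result was not tested.

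Some marker genes of other cells were also higher in perinate-tagged than in adult-tagged cells. The B cell list, with 6 of 7 genes measured, summed to 1010 to 1210 on perinate-tagged arrays and 822 to 868 on adult-tagged arrays. Cd79b, a chain of the B cell receptor, was the 1 tested gene of this list. It was higher in perinate-tagged than in adult-tagged cells (0.66 ± 0.14, limma, adjusted p = 0.00476) and than in untagged perinate-treated cells (0.81, limma, adjusted p = 0.00286). By group mean, 4 of the 6 measured B cell genes lay above the background in both tagged groups. Among those within it were Cd79a (5.30 and 5.16) and Ms4a1 (5.21 and 5.48).

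The myeloid list, with 11 of 11 genes measured, summed to 3750 to 3910 on perinate-tagged arrays and 3370 to 3570 on adult-tagged arrays. Of its 2 tested genes 1 was higher in perinate-tagged cells: Cd68, a lysosomal protein of macrophages (0.54 ± 0.16, limma, adjusted p = 0.0276). By group mean, 5 of the 11 myeloid genes lay above the background on perinate-tagged arrays and 6 on adult-tagged arrays. Among those within it were Lyz2 (6.10 and 6.28), Adgre1 (5.75 and 5.31) and Cd14 (5.77 and 5.97). Of 3 tested genes of stroma, endothelium and epithelium, 1 was higher and 0 lower, the epithelial gene Epcam (1.07 ± 0.23, limma, adjusted p = 0.00502). The median difference of the 3 was −0.29, and the list sums of 909 to 1030 and 915 to 1040 overlapped. The part of such cells in the members' differences was not tested.

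The perinate minus adult difference was next compared between tagged spleen cells and thymus, over all 18 arrays. The difference between them was 3.05 ± 0.52 for Itgae (limma, adjusted p = 0.00116), 2.79 ± 0.34 for Itga2 (adjusted p = 3.27e-05) and 1.60 ± 0.29 for Itgb1 (adjusted p = 0.00183). For these 3 of 9 members the perinate cells were the higher ones in tagged spleen and the lower ones in thymus, and 6.46% of all 10889 genes passed, 3.89% higher and 2.56% lower. Each of the 3 passed under 29 of 29 alternatives. Sex, sorter, alleles, tamoxifen and the meaning of perinate (time of tagging or age at sorting) differ between the tissues and cannot be told apart.

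Untagged adult-treated spleen cells, set against adult thymus, had 3 members higher and 1 lower (limma), where 16.3% of all genes passed, 9.51% higher and 6.82% lower. Itgb1 was higher in spleen (1.46 ± 0.20, adjusted p = 0.00017), as were Itga4 (0.88 ± 0.16, adjusted p = 0.00143) and Itgav (0.63 ± 0.20, adjusted p = 0.041), and Itgae was lower (−1.10 ± 0.37, adjusted p = 0.0493) in limma. Itgb1 passed under 29 of 29 alternatives and Itga4 under 28 of 29, but Itgav under 15 and Itgae under 10. Sex, sorter, age, alleles and tamoxifen differ with the tissue here too and cannot be told apart from it.

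Across the 6 groups, the order of levels differed from member to member. Itga2 ran from 9.79 ± 0.04 in perinate-tagged cells, above all other groups, through 8.44 ± 0.50 and 8.41 ± 0.62 in the untagged groups, 7.87 ± 0.12 in adult thymus and 7.75 ± 0.10 in adult-tagged cells, whose neighbouring ranges overlap, down to 7.12 ± 0.10 in perinate thymus. The mean of Itgb1 was highest in perinate-tagged cells (11.67 ± 0.21), whose range did not overlap that of adult-tagged cells but overlapped that of untagged adult-treated cells, and lowest in thymus (9.57 ± 0.06 in adult and 9.01 ± 0.10 in perinate).

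Itgae was high in adult thymus (10.10 ± 0.21) and perinate-tagged cells (9.87 ± 0.11), which overlapped, and lowest in adult-tagged cells (8.13 ± 0.17). Itgb8 was highest in adult and perinate thymus (9.91 ± 0.23 and 9.78 ± 0.15), also overlapping, and lowest in adult-tagged cells (8.48 ± 0.18). Itgal, Itgav and Itgb2 spanned the least, with 0.69, 0.66 and 0.58 between the highest and the lowest group mean, and Itga2 and Itgb1 the most, with 2.67 and 2.66.

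Known partner chains did not all vary together. Over the 12 spleen arrays Pearson's r was 0.92 for Itga2 and Itgb1, and 0.94 for Itgav and Itgb8, but 0.67 for Itgal and Itgb2, 0.33 for Itga4 and Itgb7, and 0.03 for Itgae and Itgb7. For Itga4 and Itgb1 it was 0.21. Over all 18 arrays r was 0.86 for Itga2 and Itgb1, 0.19 for Itgav and Itgb8, 0.70 for Itgal and Itgb2, 0.68 for Itga4 and Itgb7, 0.76 for Itga4 and Itgb1, and −0.19 for Itgae and Itgb7. Itgae went with Itgb1 (0.94) and Itga2 (0.92) in spleen, with which it is not known to pair, and less over 18 arrays (0.16 and 0.55). These are descriptions over arrays that share groups and, in the untagged groups, the low number 3 arrays.

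Among 10271 other genes, those with the pattern most like a member's over the 18 arrays were named. Itga2 was nearest to Gna15, a G protein alpha subunit (r = 0.98), and Pparg, the nuclear receptor that shapes fat-tissue Tregs (r = 0.97). Itgb8 was nearest to Ccr8, a chemokine receptor of tissue Tregs (r = 0.95), and Itgav to Jak2, a kinase of cytokine receptors (r = 0.96). Itgae was nearest to Niban1 (r = 0.93), Itgb1 to Sla, an adaptor that dampens T cell receptor signals (r = 0.97), Itga4 to the transcription factor Ets1 (r = 0.96) and Itgal to Acox3 (r = 0.95). Itgb2 was nearest to Trim8 (r = 0.94) and Itgb7 to Slc25a45 (r = 0.94). Each was picked for the highest r on these same arrays. Over the 12 spleen arrays r was 0.76 for Itga4 and Ets1, 0.87 for Itgb2 and Trim8, 0.88 for Itgb1 and Sla, and 0.91 for Itgb7 and Slc25a45. The other pairs named had 0.95 to 0.98 there.

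Of 17 other integrin subunits, 8 were tested in spleen, and Itgb3 alone differed between perinate-tagged and adult-tagged cells, against 19.5% of all genes in either direction. Itgb3, the beta chain of the vitronectin receptor with alphav and of the platelet fibrinogen receptor, read 9.52, 9.58 and 9.53 in perinate-tagged cells, against 8.35, 8.37 and 8.35 in adult-tagged cells. The 2 sets of values lay far apart relative to their spread, and the difference was 1.19 ± 0.14 (limma, adjusted p = 4.5e-05). The tagged minus untagged difference was 1.03 ± 0.20 for Itgb3 (limma, adjusted p = 0.00674), and the tagged spleen minus thymus difference was 1.41 ± 0.19 (limma, adjusted p = 0.000167). In thymus, Itga6, a laminin receptor chain, was higher (0.58 ± 0.17, adjusted p = 0.041) and Itga10, a collagen receptor chain, lower in perinate cells (−0.48 ± 0.13, adjusted p = 0.0313) in limma, out of 9 tested.

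Of 12 tested ligands and matrix proteins, 3 were higher in perinate-tagged than in adult-tagged cells and 0 lower (limma), where 16% and 3.5% of all genes were. These were Lamc1, a laminin chain (1.12 ± 0.18, adjusted p = 0.000752), Tgfb3, whose latent form alphav integrins activate (0.95 ± 0.26, adjusted p = 0.019), and Vcam1, the ligand of alpha4 with beta1 (0.82 ± 0.23, adjusted p = 0.0218). In perinate thymus 3 of 15 ligands were higher (limma), near the 18.5% of all genes: Lrrc32, which holds latent TGF-beta on the Treg surface (1.19 ± 0.32, adjusted p = 0.0317), Fn1, fibronectin (1.18 ± 0.14, adjusted p = 0.00137), and Tgfb3 (0.93 ± 0.28, adjusted p = 0.0471). The lists' medians were 0.20 in tagged spleen and −0.04 in thymus, against 0.12 and 0.17 over all genes.

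Of 34 tested activators and adaptors, which carry force and signals between integrin tails and actin, 4 were higher and 0 lower in perinate-tagged cells (limma), no larger a share than the 16% of all genes that were higher. Zyx, zyxin of focal adhesions, differed by 0.79 ± 0.12 (adjusted p = 0.000495), and Vcl, vinculin, by 0.72 ± 0.16 (adjusted p = 0.00656). Dok1, an adaptor of integrin beta tails (0.72 ± 0.23, adjusted p = 0.0378), and Itgb1bp1, which binds the beta1 tail (0.41 ± 0.13, adjusted p = 0.0425), lay nearer the threshold. In perinate thymus 6 of 35 were higher and 1 lower (limma), near the 18.5% of all genes that were higher. Vcl (0.93 ± 0.15, adjusted p = 0.00514), the talins Tln2 (0.89 ± 0.20, adjusted p = 0.0176) and Tln1 (0.53 ± 0.14, adjusted p = 0.0309), and Flna, filamin A (0.81 ± 0.19, adjusted p = 0.0207), were among the higher ones. Actn4, an actin crosslinker (0.71 ± 0.18, adjusted p = 0.0285), and Cytip, a regulator of LFA-1 adhesion (0.44 ± 0.12, adjusted p = 0.0295), were also higher in limma.

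Of 10 membrane partners, the tetraspanin Cd81 alone was higher in perinate-tagged cells (0.54 ± 0.15, limma, adjusted p = 0.0242), where 16% of all genes were. In perinate thymus Plaur, the urokinase receptor (0.71, adjusted p = 0.0283), and Cd81 (0.55, adjusted p = 0.0297) were higher, and Cd226, a receptor that works with LFA-1, was lower (−0.50, adjusted p = 0.0161) in limma. No gene of these 4 lists passed between the untagged groups, or between adult-tagged and untagged adult-treated cells, in limma.

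Itgb3 and Zyx stayed higher in perinate-tagged cells and past the threshold under each scaling, with the interquartile range as a covariate and without any 1 array. Lamc1 and Vcl did so under each scaling and without any 1 array, but with the covariate were at 0.74 (adjusted p = 0.0661) and 0.50 (adjusted p = 0.23) in limma. Under centring on the tested genes the direction of the others held, but Tgfb3 (0.74, adjusted p = 0.0654), Vcam1 (0.61, adjusted p = 0.074), Dok1 (0.51, adjusted p = 0.0703), Itgb1bp1 (0.20, adjusted p = 0.172) and Cd81 (0.33, adjusted p = 0.112) did not pass in limma. In thymus Fn1 and Vcl passed under each scaling and without any 1 array. The other thymus genes named from these lists each lost the threshold on leaving out at least 3 of the arrays in turn.

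Against untagged perinate-treated cells, 5.49% of all genes were higher and 1.86% lower in perinate-tagged cells in limma. Of these lists 8 genes were higher and 0 lower: 1 of 8 tested other subunits, 4 of 12 ligands, 3 of 34 adaptors and 0 of 10 partners. They were Itgb3 (0.58, adjusted p = 0.0214), the ligands Tgfb3 (0.99, adjusted p = 0.0306), Vcam1 (0.96, adjusted p = 0.0192), Lamc1 (0.66, adjusted p = 0.0423) and Icam1 (0.43, adjusted p = 0.0489), and the adaptors Vcl (0.86, adjusted p = 0.00486), Zyx (0.63, adjusted p = 0.0058) and Vasp (0.54, adjusted p = 0.0314). Vcl and Zyx passed without any 1 array, and the other 6 each lost the threshold on leaving out at least 3 of 12 arrays in turn. The untagged perinate-treated means of Tgfb3 (6.91) and Vcam1 (6.54) lay below the filter. The tagged minus untagged difference also passed for Lamc1 (1.04, adjusted p = 0.0314) and Zyx (0.68, adjusted p = 0.0357) in limma.

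Between tagged spleen and thymus the perinate minus adult difference also differed for Vcam1 (1.34, adjusted p = 0.00996), Itga6 (−0.97, adjusted p = 0.0156), Itgb1bp1 (0.69, adjusted p = 0.0272), Tln2 (−0.80, adjusted p = 0.0357) and Cytip (−0.61, adjusted p = 0.0496) in limma. Untagged adult-treated spleen cells had Itga6 (0.84), Itgb3 (0.58), Rasgrp2 (0.77), Lpxn (0.73), Lims1 (0.53), Rassf5 (0.44), Cd82 (0.49) and Slc3a2 (0.42) higher than adult thymus, and Icam1 (−0.60) and Itga3 (−0.51) lower, with adjusted p between 0.00276 and 0.0489 in limma. These were 2 of 9 tested subunits, 4 of 35 adaptors and 2 of 10 partners higher, and 1 subunit and 1 of 16 ligands lower. Of all genes, 9.51% were higher and 6.82% lower. Leaving out 1 array ended the call in 16 of 18 cases for Slc3a2, 14 for Cd82, 12 for Lims1 and at most 4 for the others. With the interquartile range as a covariate Rasgrp2, Lims1, Cd82 and Slc3a2 did not pass, nor did Itga3 with median centring.

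**Figure D4:**
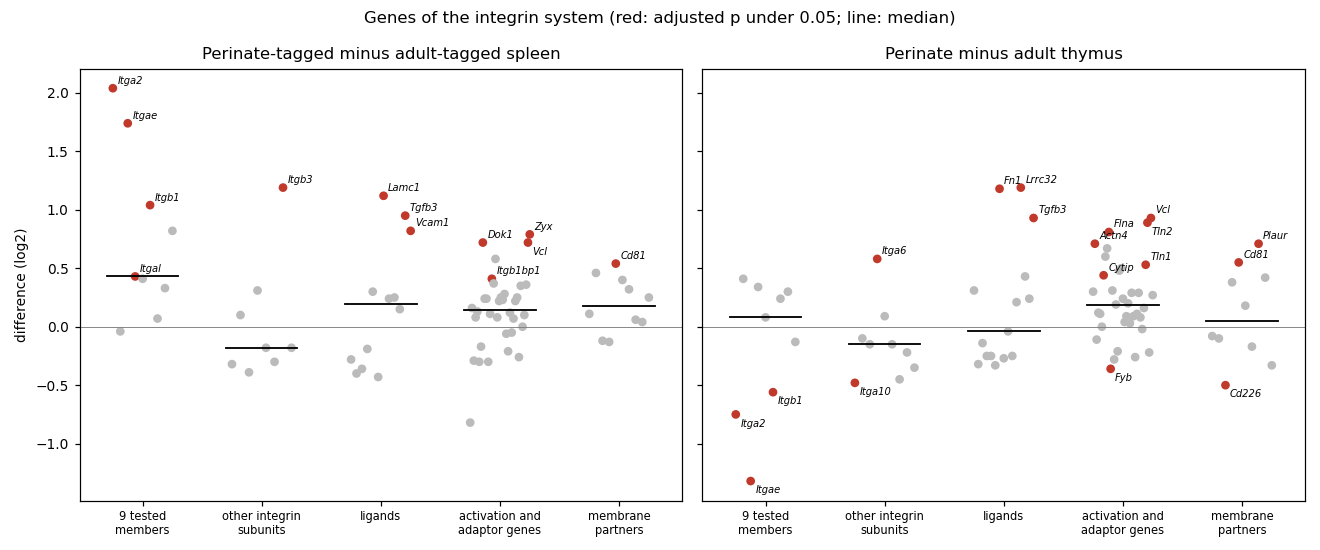
Log2 differences (vertical axes) of the genes of the member list and 4 related lists between perinate-tagged and adult-tagged cells and between perinate and adult thymus, with 1 point per tested gene, red points for an adjusted p under 0.05 in limma and lines for list medians. Vcl is higher in both comparisons, while Itga2, Itgae and Itgb1 are higher in the first and lower in the second.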

How the data were processed

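The authors deposited linear intensity values per probe set, made with RMA in Affymetrix Power Tools, per the submitters' processing notes. Versions, genome build and the arrays normalized together are not given in the sources used here. RNA was extracted with TriZol and biotin-labelled with the Affymetrix WT Terminal Labeling kit, per the labels' protocols. Of 24922 probe sets, 21425 carried 1 gene symbol, and the one with the highest mean was kept for each of 19752 genes. Values were log2 transformed with no pseudocount and not normalized again. A gene was tested when its mean in at least 1 group of the fit reached the median of all values, 133 on the linear and 7.052 on the log2 scale. Probe sets near background understate differences, and levels of different probe sets were not compared.

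Groups followed the labels. The 8 contrasts were tested two-sided by the lmFit and eBayes functions of limma 3.58.1 (R 4.3.3), with Benjamini-Hochberg adjustment over all genes of the fit: 10350 in spleen (12 arrays), 10650 in thymus (6 arrays) and 10889 over 18 arrays. The threshold was 0.05. A permutation test of 3 arrays against 3 cannot reach a p below 0.1. The code was tested on simulated data. The members and gene lists were chosen with earlier results of these data known. The text names every member, the listed genes past the threshold (at most 6 per list and contrast) and, for likeness, 1 or both of the 2 genes with the highest Pearson's r to a member. Marker genes past the threshold in the tagged comparison were named after their values were seen.

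Same-numbered untagged arrays deviated together (r of 0.62, 0.13 and 0.45 for numbers 3, 4 and 5, each above 0.1), so a block on the number was run for them. That pairing comes from the data, and arrays numbered 4 went better with the other group's arrays numbered 5 (0.28 and 0.29). Alternatives covered normalization, centring, the filter, array weights, the variance prior, which arrays were fitted, the array spread as a covariate, the block and leaving out arrays. Promoters came from RefSeq (GRCm38.p6). Python 3.11.15 and matplotlib 3.10.9 drew the figures. The chimera samples of the series text are not analysed here.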

Additional observations from a re-analysis of the deposited data

Results flagged for a closer look

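For several genes the perinate minus adult difference itself differed between settings (limma, interaction terms, adjusted over all genes). Between tagged and untagged spleen cells it differed by 2.07 ± 0.37 for Itga2 (adjusted p = 0.00368) and by 1.03 ± 0.20 for Itgb3 (adjusted p = 0.00674). Between tagged spleen and thymus it differed by 2.79 ± 0.34 for Itga2 (adjusted p = 3.27e-05), 3.05 ± 0.52 for Itgae (adjusted p = 0.00116), 1.6 ± 0.29 for Itgb1 (adjusted p = 0.00183) and 1.41 ± 0.19 for Itgb3 (adjusted p = 0.000167). Among related genes it differed between tagged and untagged cells by 1.04 for Lamc1 (adjusted p = 0.0314) and 0.68 for Zyx (adjusted p = 0.0357). Between tagged spleen and thymus it differed by 1.34 for Vcam1 (adjusted p = 0.00996), −0.97 for Itga6 (adjusted p = 0.0156), 0.69 for Itgb1bp1 (adjusted p = 0.0272), −0.8 for Tln2 (adjusted p = 0.0357) and −0.61 for Cytip (adjusted p = 0.0496). Leaving out 1 array ended the call in 8 of 12 cases for Lamc1, 9 of 12 for Zyx, 9 of 18 for Tln2, 7 of 18 for Itgb1bp1, 13 of 18 for Cytip, 1 of 18 for Itga6 and 0 of 18 for Vcam1. Every perinate array lay above every adult array in tagged spleen, and below in thymus, for Itga2, Itgae and Itgb1. Groups of 3 arrays are too small for a check of single outlying samples.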

How the results depend on the processing

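Itga2 kept its direction and stayed past the threshold under every alternative run for the tagged difference, both interactions, the comparison with untagged perinate-treated cells and the thymus. The count of tested members past the threshold (limma) moved as follows, and the counts over all genes, given further on, moved too. Between perinate-tagged and adult-tagged cells it was 4, where 19.5% of all genes passed. It was 7 with array weights, where more of all genes passed, and 1 with the interquartile range as a covariate, where fewer did. For the tagged minus untagged difference it was 1, and 2 with no filter, where Itga1 was added. Without both untagged arrays numbered 3 it was 4, where 6.06% of all genes passed. Against untagged perinate-treated cells it was 1, and 2 with no filter, centring on tested genes, a trended robust prior or only the groups compared. It was 3 without both number 3 arrays, where 15.4% of all genes passed, and 4 with array weights. With the replicate number as a block it was also 4, but these arrays share only a number (r of −0.11 and 0.00 for numbers 4 and 5). That fit held only the groups compared, and its difference rested on the arrays numbered 4 and 5. For adult-tagged against untagged adult-treated cells it was 0, and 6 without both number 3 arrays, where 13.9% of all genes passed. In thymus it was 3, and 5 with the interquartile range as a covariate, where 2523 of 10650 genes passed. Itgb2 turned there from 0.24 to −0.49 (limma, adjusted p = 0.013). The interquartile ranges of the thymus groups did not overlap, at 3 to 3.06 in perinate and 2.08 to 2.82 in adult thymus. Between tagged spleen and thymus it was 3, and 5 with array weights, whose estimation there stopped before its tolerance was reached, and between untagged spleen and adult thymus 4, and 1 with only the groups compared. The causes were not tested.

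Leaving out each array in turn gave 3 to 5 members for the tagged comparison, 0 to 0 for the untagged one, 1 to 4 for the tagged minus untagged difference, 1 to 2 against untagged perinate-treated cells, 0 to 6 for adult-tagged against untagged adult-treated cells, 2 to 5 in thymus, 3 to 3 for tagged spleen minus thymus and 2 to 5 between spleen and thymus. The 6 came without untagged adult-treated replicate 3, with 774 of all genes, and the 5 in thymus without adult thymus replicate 1, with 4388. Over all genes the counts ran from 906 to 2511 for the tagged comparison and from 0 to 5 for the untagged one. They ran from 279 to 679 for the tagged minus untagged difference and from 299 to 1001 against untagged perinate-treated cells. For tagged spleen minus thymus they ran from 393 to 1069, and between spleen and thymus from 759 to 2385.

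Counts over all genes moved too. For the tagged comparison they were 2020, and 376 with the interquartile range and 5904 with array weights. For the untagged comparison they were 0, and 49 with the replicate block and 21 without both number 3 arrays. The block changed no member's call there, and left Itga2 as the member past the threshold in the tagged minus untagged difference, with 274 genes against 506. The thymus numbers did not pair the arrays (r of −0.05, 0.07 and 0.12), and the block again gave 3 members. For adult-tagged against untagged adult-treated cells they were 28, and 1450 without both number 3 arrays. Against untagged perinate-treated cells they were 760, and 3188 with the block, whose difference rested on the shared numbers 4 and 5 alone. In thymus they were 2589, with 707 to 4388 on leaving out an array. No paired analysis was possible for the remaining comparisons because they share fewer than 2 numbers. The 3 arrays per group limit the precision, and Itga1 lies too near background for its size of change.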
